A study of Mus musculus with 6 samples.

Results

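The 10 genes described here encode 5 S100 calcium-binding proteins (*S100a4*, *S100a6*, *S100a10*, *S100a11* and *S100a13*) and 5 annexins (*Anxa1*, *Anxa2*, *Anxa4*, *Anxa5* and *Anxa6*), out of 23420 genes measured by RNAseq in activated primary mouse CD4+ T cells. They were chosen by the level of *S100a6*, which read lower with harmine than in control cells, together with relatives and partners of *S100a6* that are known to be raised in effector and memory T cells. The comparison of harmine with control therefore chose the list, and its values are given as a description, from which no test of the 10 genes is read. All 10 passed the filter on low counts, as did 10607 genes in all.

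Naive (CD4+CD62L+) splenic T cells from BALB/c mice aged 12 weeks were purified on magnetic beads and stimulated with plate-bound antibodies to CD3 and CD28. At 24 h the cells received a lentivirus for a short hairpin RNA (shRNA), with medium and IL-2 added 24 h after that and cells harvested another 48 h later. There were 2 libraries with *Dyrk1a* shRNA, 2 with scramble shRNA and 3.7 µM harmine, and 2 with scramble shRNA alone, called Dyrk1a shRNA, harmine and control below. Harmine, a plant alkaloid, inhibits the kinase DYRK1A among other targets, so that the design set chemical inhibition beside knockdown of the same kinase. All groups carried an shRNA vector, and how large a share of the cells in each well was transduced is not in the labels. The labels do not say whether the replicates of a group came from separate mice or cultures, so the p-values measure the spread between these libraries only, which may be technical. The i5 sequencing index was shared within each group and differed between groups, so index and group cannot be told apart.

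S100 proteins are small EF-hand proteins that bind calcium and then open a surface for a partner protein. Annexins bind acidic phospholipids of membranes when calcium rises, and several of them take an S100 dimer as their partner, the best known pairs being S100A10 with annexin A2 and S100A11 with annexin A1. In T cells, *S100a4*, *S100a6*, *S100a10*, *S100a11*, *Anxa1* and *Anxa2* are known to be low in naive cells and raised in effector and memory cells. Their proteins act in membrane repair, cell shape and motility.

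The libraries held 1096387 to 3747699 expected counts, the 2 controls being the smallest, and 3 counts corresponded to between 0.792 and 2.53 CPM, the counts of a gene relative to the library's total. All levels below are CPM scaled by the trimmed mean of M values (TMM). The 8 CD4 T cell markers in the table summed to between 2850 and 3160 CPM in the 6 libraries. The myeloid markers (10 in the table) summed to 39.1 and 26.2 CPM with Dyrk1a shRNA, 39.0 and 27.2 CPM with harmine, and 70.3 and 31.2 CPM in controls. Without *S100a8* and *S100a9*, which are S100 genes, the myeloid sums were 32.2 and 19.8 CPM with Dyrk1a shRNA, 33.4 and 22.2 CPM with harmine, and 46.4 and 22.8 CPM in controls. The sums of B cell (65.0 to 115 CPM over the libraries), CD8 T and NK cell (18.6 to 31.4), erythroid and platelet (10.3 to 30.1) and stromal markers (14.3 to 22.6) were highest in control replicate 1 too. Of the defining myeloid markers, the lysozyme gene *Lyz2* had 9 to 69 counts and the macrophage receptor gene *Csf1r* 0 or 1 count in every library. *Dyrk1a* itself read 60.2 and 61.9 CPM with Dyrk1a shRNA, 74.8 and 77.6 CPM with harmine, and 58.4 and 82.7 CPM in controls. The log2 fold change of *Dyrk1a* for Dyrk1a shRNA against control was -0.19 (SE 0.211, edgeR adjusted p = 0.835, 2 libraries a group), so that a knockdown of the transcript was not detectable beyond the spread of the controls. In bulk RNA, fewer cells that express a gene and less of its RNA per cell cannot be told apart.

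Control replicate 1 stood apart from the other libraries in a way that touches the S100 genes. Short transcripts were high in it: over the 394 tested genes with a mean transcript length of up to 0.8 kb, the median log2 CPM, each gene centred on its mean over the 6 libraries, was -0.14 and -0.15 with Dyrk1a shRNA, 0.0055 and -0.02 with harmine, and 0.70 and -0.36 in controls. The 79 cytosolic ribosomal protein genes in the table took 14.9% and 14.8% of counts with Dyrk1a shRNA, 16.2% and 16.0% with harmine, and 21.7% and 12.2% in controls. The 5 S100 transcripts are 498 to 715 bases long, and the 5 annexin transcripts 1447 to 2480 bases. The same centred median over the 5 S100 genes was -0.27 and -0.02 with Dyrk1a shRNA, -0.64 and -0.24 with harmine, and 1.08 and -0.04 in controls, while over the 5 annexins it was 0.24 and -0.06, -0.17 and -0.15, and 0.13 and -0.02 in the same order of groups. For the S100 genes, fold changes against control are therefore also given with smooth trends of length and GC content removed from each library.

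**Figure D1:**
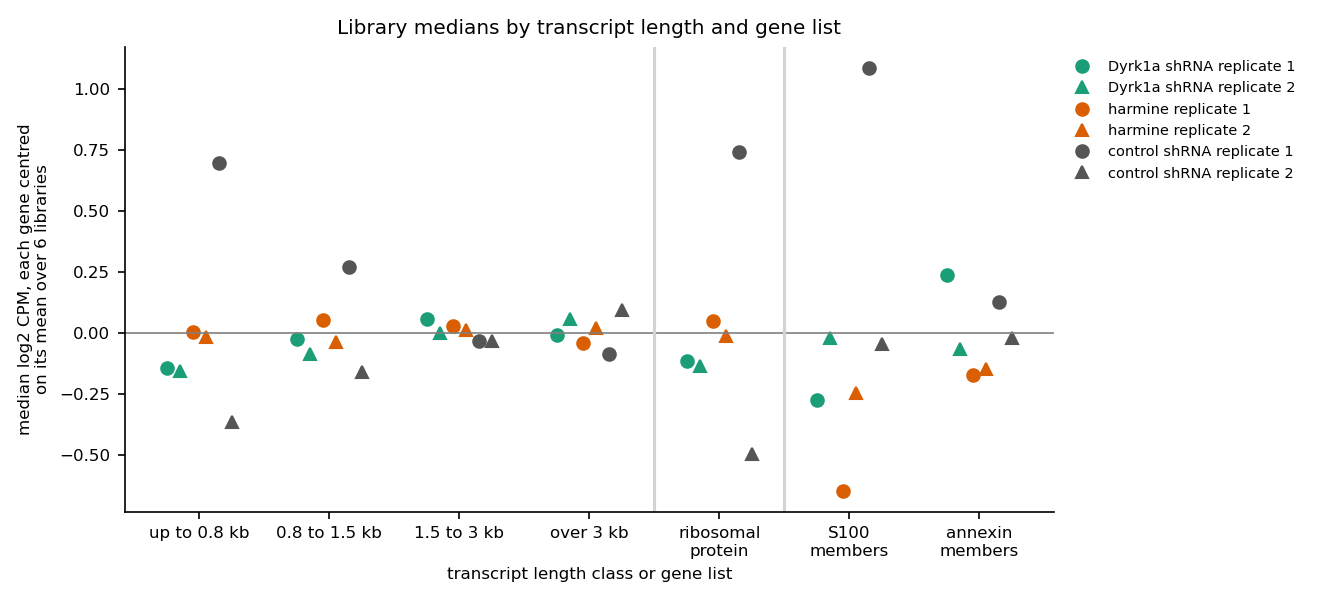
Median log2 CPM of each library (y axis, each gene centred on its mean over the 6 libraries) for 4 classes of transcript length, the ribosomal protein genes, and the S100 and annexin genes described here (x axis). Circles are replicate 1 and triangles replicate 2, coloured by group. Control replicate 1 lies above the other 5 libraries for transcripts of up to 0.8 kb (0.70), ribosomal protein genes (0.74) and S100 genes (1.08), and within their range for annexins (0.13).

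*S100a4* and *S100a6* are neighbours on chromosome 3 (GRCm38, the assembly also called mm10), where *S100a4* spans 90603771 to 90606045 and *S100a6* spans 90612882 to 90624181, both on the plus strand, with 6836 bases between them. *S100a13* lies on the same strand at 90514435 to 90524581, 42 bases from *S100a1* on the minus strand, and *S100a11* (93520488 to 93526287) and *S100a10* (93555080 to 93564643) lie together farther along, with 28792 bases between them. The annexins are scattered, with *Anxa5* on chromosome 3 (36448923 to 36475894, minus strand), *Anxa1* on chromosome 19 (20373428 to 20390944, minus), *Anxa2* on chromosome 9 (69453620 to 69491795, plus), *Anxa4* on chromosome 6 (86736840 to 86793584, minus) and *Anxa6* on chromosome 11 (54979108 to 55033445, minus). The promoters of the 2 neighbours are shown because these 2 genes were the most alike in level across the libraries. Each runs from 250 bases before the RefSeq transcript start to 30 bases from it (GRCm38.p6, plus strand, chr3:90603520-90603799 for *S100a4* and chr3:90612644-90612923 for *S100a6*), with the TATA match TATAAA in capitals in *S100a4* and the E-box match CACGTG in capitals in *S100a6*.
S100a4: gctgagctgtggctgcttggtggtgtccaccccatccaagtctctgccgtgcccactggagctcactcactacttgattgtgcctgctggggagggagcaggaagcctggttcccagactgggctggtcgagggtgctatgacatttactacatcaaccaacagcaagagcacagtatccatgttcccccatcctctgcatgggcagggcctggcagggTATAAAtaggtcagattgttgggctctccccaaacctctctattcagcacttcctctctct
S100a6: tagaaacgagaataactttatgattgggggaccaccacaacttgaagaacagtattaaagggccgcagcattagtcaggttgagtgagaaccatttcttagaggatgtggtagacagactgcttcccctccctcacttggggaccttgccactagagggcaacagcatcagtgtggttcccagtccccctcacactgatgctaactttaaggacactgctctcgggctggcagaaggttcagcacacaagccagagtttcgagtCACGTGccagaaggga
The TATA match of *S100a4* lies from -31 to -26 and the E-box match of *S100a6* from 14 to 19, counted from 0 at the transcript start. Of 32851 RefSeq windows that reach from 250 bases before to 50 bases after a start, searched on both strands, 13.6% held TATAAA, 7.15% held CACGTG, 7.81% held the AP-1 letters TGANTCA and 61.3% held the NFAT core letters GGAAA. Windows were at hand for 8 of the 10 genes (9 windows), of which 3 held TATAAA, 2 held CACGTG, 2 held TGANTCA and 6 held GGAAA. In the window of *S100a6* GGAAA occurred once, from 27 to 31, across the end of the printed stretch, and in that of *S100a4* it did not occur. These are matches of letters and no measure of binding.

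Per kilobase of transcript, *S100a10*, which carries annexin A2 to the plasma membrane, was the most abundant of the 10 genes in all 6 libraries, at 1100 CPM per kb on average over them. *Anxa2* was second in all 6 libraries at 538 CPM per kb. Both stood well above *S100a6* (123 CPM per kb), *S100a11* (121), *Anxa6* (97.3), *S100a4* (61.1), *Anxa5* (53.9) and *S100a13* (51.3), whose order changed between libraries. *Anxa4* (13.8 CPM per kb) was 9th and *Anxa1* (1.66 CPM per kb) 10th in every library. From the highest to the lowest of the 6 libraries, CPM differed 6.01-fold for *S100a6*, 5.89-fold for *S100a4*, 3.39-fold for *S100a13* and 2.88-fold for *S100a11*. It differed 1.22-fold to 1.57-fold for *Anxa2*, *Anxa4*, *Anxa5* and *Anxa6*. The families were not cleanly split, with 1.81-fold for *S100a10* and 2.95-fold for the scarce *Anxa1*.

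**Figure D2:**
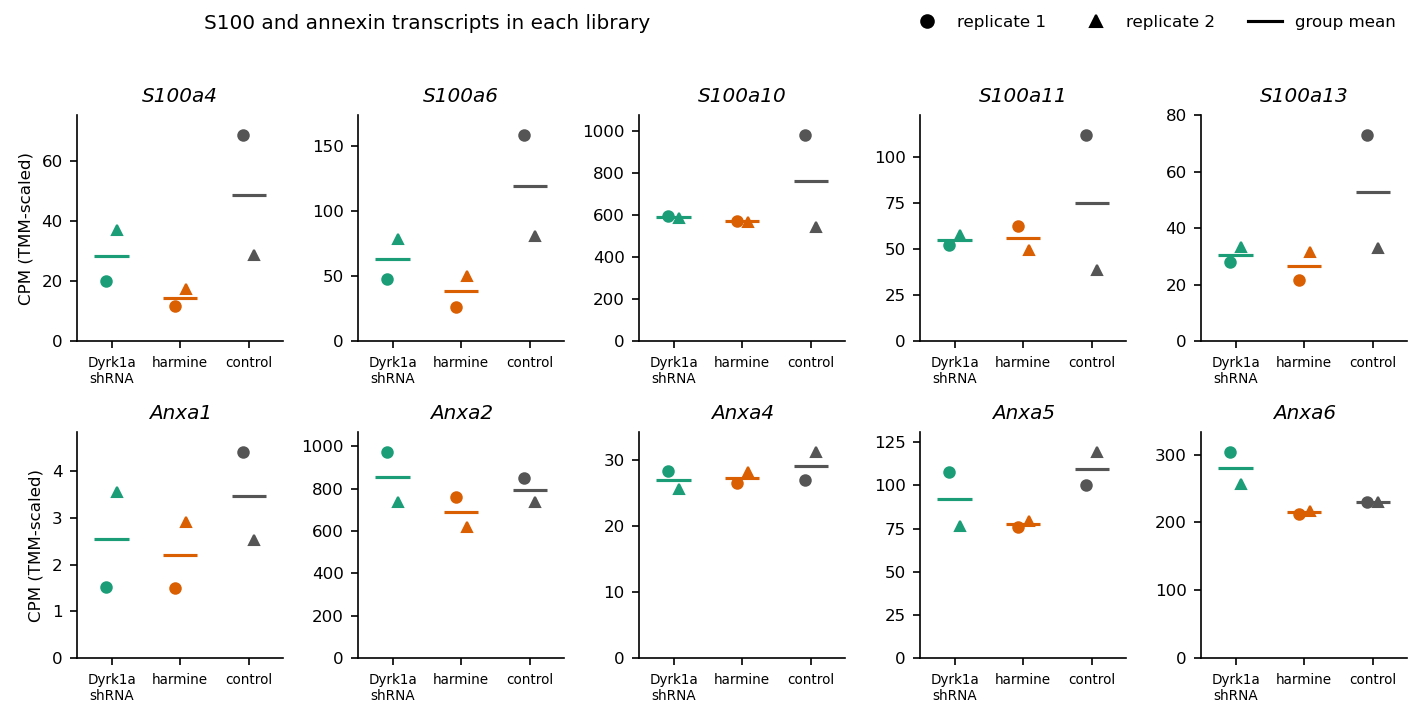
TMM-scaled CPM of the 10 genes (y axes, each from 0) in the Dyrk1a shRNA, harmine and control libraries (x axes). Circles are replicate 1, triangles replicate 2 and lines group means of 2 libraries. For the 5 S100 genes control replicate 1 is the highest of all 6 libraries, and for *S100a4* and *S100a6* both harmine libraries lie below both controls.

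*S100a6* encodes calcyclin, first known from cells entering the cycle after growth stimulation, and it gave rise to the list. It read 47.9 and 78.7 CPM with Dyrk1a shRNA, 26.2 and 50.2 CPM with harmine, and 158 and 81.0 CPM in controls, from 88 to 267 counts a library. Group means were 63.3 ± 21.8 CPM with Dyrk1a shRNA, 38.2 ± 16.9 CPM with harmine and 119 ± 54.1 CPM in controls (SD, n = 2 each). Both treated groups lay below both controls, though Dyrk1a shRNA replicate 2 only just (78.7 against 81.0 CPM), and the lower harmine library was the lowest of all. The log2 fold change was -1.65 (SE 0.367) for harmine against control, -0.92 (SE 0.357) for Dyrk1a shRNA against control and 0.73 (SE 0.361) for Dyrk1a shRNA against harmine, all 3 as descriptions of the gene that chose the list. Without control replicate 1, the first was -1.08 and the second -0.35, and with trends of length and GC content removed they were -1.35 and -0.49.

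*S100a4* encodes a regulator of cell motility that binds non-muscle myosin, and in T cells it is a well known marker of memory cells. It read 19.9 and 36.8 CPM with Dyrk1a shRNA, 11.6 and 17.2 CPM with harmine, and 68.4 and 28.7 CPM in controls. Both harmine libraries were below all others, and the Dyrk1a shRNA libraries lay on either side of the lower control. The log2 fold change for harmine against control was -1.78 (SE 0.402) with all libraries, -0.99 without control replicate 1 and -1.39 with trends of length and GC content removed. Dyrk1a shRNA against control gave -0.79 (SE 0.38, edgeR adjusted p = 0.658, 2 libraries a group), 0.0001 without control replicate 1 and -0.17 with the trends removed. Dyrk1a shRNA against harmine gave 0.99 (95% interval 0.13 to 1.85), with the groups not overlapping and an edgeR adjusted p of 0.83. *S100a4* overlaps an annotated protein-coding gene on its own strand over 2115 bases, that gene is not analysed here, and how reads of the overlap were assigned is unknown.

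*S100a4* and *S100a6* followed each other closely from library to library. The ratio of *S100a6* to *S100a4* counts was 2.40 and 2.14 with Dyrk1a shRNA, 2.26 and 2.92 with harmine, and 2.30 and 2.82 in controls. *S100a6* made up 70.6% (95% exact binomial interval 63.3 to 77.2) and 68.1% (63.2 to 72.7) of their joint counts with Dyrk1a shRNA. With harmine it was 69.3% (60.5 to 77.2) and 74.5% (68.7 to 79.7), and in controls 69.7% (64.7 to 74.4) and 73.8% (65.4 to 81.2). The intervals, which cover counting error only, overlapped throughout, while the levels of the 2 genes differed 5.89-fold and 6.01-fold between libraries. Among the 10606 other tested genes, *S100a4* was nearest to *S100a6* by the root mean square difference of centred log2 CPM over the 6 libraries (0.16), ahead of *Fhl3* (0.24), *Mndal* (0.30), *Zan* (0.32) and *Fam196b* (0.33), of which *Zan* had fewer than 4 CPM in every library. Of the other genes of the list *S100a13* was 8th and *Anxa1* 43rd, while *S100a10* was 519th and *S100a11* 1699th.

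**Figure D3:**
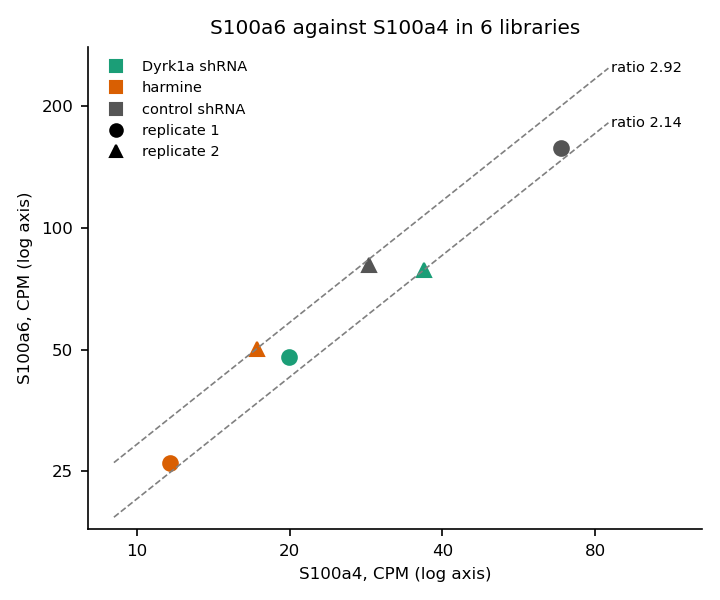
*S100a6* (y axis) against *S100a4* (x axis) in TMM-scaled CPM, both on log axes, with 1 point for each of the 6 libraries, coloured by group and shaped by replicate. Dashed lines mark the lowest and the highest ratio of the 2 genes, 2.14 and 2.92. The harmine libraries lie at the low end for *S100a4* and control replicate 1 at the high end for both genes.

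*S100a13*, whose protein takes part in the non-classical release of FGF1 and IL-1 alpha, read 28.0 and 33.3 CPM with Dyrk1a shRNA, 21.5 and 31.7 CPM with harmine, and 72.8 and 32.9 CPM in controls. The second control lay among the treated libraries, so that the difference rested on control replicate 1. The log2 fold change of *S100a13* was -1.02 (SE 0.318) for harmine against control, -0.31 without that library and -0.75 with trends of length and GC content removed. Dyrk1a shRNA against control gave -0.81 (SE 0.319, edgeR adjusted p = 0.612, 2 libraries a group), -0.10 without that library and -0.48 with the trends removed. The harmine and control libraries did not overlap, by a margin of 31.7 to 32.9 CPM.

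*S100a10* encodes the partner that forms a tetramer with annexin A2, and it read 592 and 586 CPM with Dyrk1a shRNA, 569 and 568 CPM with harmine, and 977 and 540 CPM in controls. The 4 treated libraries lay within 568 to 592 CPM, between the 2 controls. *S100a10* had a log2 fold change of -0.42 (SE 0.257) for harmine against control, of 0.07 without control replicate 1 and of -0.14 with trends of length and GC content removed. It was -0.37 (SE 0.257, edgeR adjusted p = 0.745, 2 libraries a group) for Dyrk1a shRNA against control, and 0.12 without control replicate 1 and 0.11 with trends of length and GC content removed. Its partner *Anxa2*, which links membranes to actin and binds plasminogen activators, read 970 and 738 CPM with Dyrk1a shRNA, 758 and 621 CPM with harmine, and 849 and 735 CPM in controls, with all 3 groups overlapping. *Anxa2* had log2 fold changes of -0.20 (SE 0.238) for harmine against control, 0.11 (SE 0.238, edgeR adjusted p = 0.934) for Dyrk1a shRNA against control and 0.31 (SE 0.237, edgeR adjusted p = 0.896) for Dyrk1a shRNA against harmine (2 libraries a group). The ratio of *S100a10* to *Anxa2* counts was 0.61 and 0.795 with Dyrk1a shRNA, 0.751 and 0.915 with harmine, and 1.15 and 0.735 in controls.

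*S100a11*, which pairs with annexin A1 and acts in membrane repair, read 52.1 and 57.8 CPM with Dyrk1a shRNA, 62.6 and 49.4 CPM with harmine, and 112 and 38.8 CPM in controls. Here the controls were the highest and the lowest of the 6 libraries, and their own 2.88-fold difference was larger than that between any groups. *S100a11* had log2 fold changes of -0.47 (SE 0.348) for harmine against control and -0.49 (SE 0.352, edgeR adjusted p = 0.756, 2 libraries a group) for Dyrk1a shRNA against control. Without control replicate 1 these turned to 0.52 and 0.50, and with trends of length and GC content removed they were -0.07 and 0.13. Processed pseudogenes share up to 98.99% of their bases with *S100a11* over 297 bases and are not analysed here, so its counts are uncertain. *Anxa1*, known for its anti-inflammatory action through formyl peptide receptors, was scarce, with 1.53 and 3.54 CPM with Dyrk1a shRNA, 1.49 and 2.90 CPM with harmine, and 4.39 and 2.53 CPM in controls, from 3 to 12 counts a library. Its log2 fold changes of -0.67 (SE 0.702) for harmine and -0.44 (SE 0.70, edgeR adjusted p = 0.905) for Dyrk1a shRNA, both against control with 2 libraries a group, were smaller than their errors, so no difference was detectable at this depth. *Anxa1* overlaps a gene on the opposite strand, annotated as a long non-coding RNA, that had 0 counts.

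None of *Anxa4*, *Anxa5* and *Anxa6* passed the edgeR test in the comparisons with Dyrk1a shRNA. *Anxa5*, the phosphatidylserine binder used to stain dying cells, read 108 and 76.3 CPM with Dyrk1a shRNA, 76.0 and 79.2 CPM with harmine, and 100 and 119 CPM in controls. Both harmine libraries lay below both controls, with a log2 fold change of -0.49 (SE 0.208) for harmine against control that was -0.62 without control replicate 1 and -0.37 without control replicate 2. *Anxa5* for Dyrk1a shRNA against control gave -0.25 (SE 0.208, edgeR adjusted p = 0.773, 2 libraries a group). *Anxa6*, which binds membranes with 2 annexin cores and acts in endocytosis and cholesterol traffic, read 303 and 256 CPM with Dyrk1a shRNA, 213 and 217 CPM with harmine, and 230 and 230 CPM in controls. It was the 1 gene of the list that lay higher in both Dyrk1a shRNA libraries than in all 4 others. *Anxa6* had log2 fold changes of 0.28 (SE 0.179, edgeR adjusted p = 0.727) for Dyrk1a shRNA against control and 0.38 (SE 0.176, edgeR adjusted p = 0.859) for Dyrk1a shRNA against harmine, with 2 libraries a group. *Anxa4*, an annexin best known from secretory epithelia, was the steadiest, at 28.4 and 25.6 CPM with Dyrk1a shRNA, 26.5 and 28.3 CPM with harmine, and 27.0 and 31.2 CPM in controls.

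Set side by side, the fold changes for harmine against control were below 0 for 10 of 10 genes, with a median of -0.48, against -0.02 over all 10607 genes tested. The 5 S100 genes had a median of -1.02 and the 5 annexins of -0.20. Both harmine libraries lay below both controls for 5 of the 10 (*S100a4*, *S100a6*, *S100a13*, *Anxa5* and *Anxa6*), where 15.9% of all tested genes did so and 16.4% lay above. Because this comparison chose the list through *S100a6*, nothing is read from the counts of calls that follow. By edgeR 0 of the 10 passed an adjusted p of 0.05, as 0.00943% of all genes did, and 4 were lower at an unadjusted p under 0.05, where 3.07% of all genes were lower and 2.22% higher. DESeq2 called 1 of the 10, which was *S100a6* itself, and 0.0283% of all genes. Without control replicate 1, 8 of the 10 genes, including 3 of the 5 S100 genes, were below 0 and the median was -0.19. With trends of length and GC content removed all 10 stayed below 0, with a median of -0.32.

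For Dyrk1a shRNA against control, 8 of the 10 genes were below 0 and 2 (*Anxa2* and *Anxa6*) above, with a median of -0.40, against -0.01 over all genes. The control libraries are the same as in the harmine comparison, so the 2 sets of values are not independent. By edgeR 0 of the 10 passed, with 0.0189% of all genes called. At an unadjusted p under 0.05, *S100a13* was lower and 0 were higher, where 4.59% of all genes were lower and 3.1% higher. *S100a6* was lower too, but it chose the list through the same control libraries, so nothing is read from it. DESeq2 called 0 of the 10 and 0.0283% of all genes. The libraries did not overlap for *Anxa6*, which was higher, and for *S100a6*, which was lower and is a description here. Of all genes, 16.9% were lower and 18.5% higher in this way. The median of the 10 was -0.08 with trends of length and GC content removed, 5 of the 10 then being below 0, and 0.02 without control replicate 1. Without control replicate 2, which leaves control replicate 1 as the lone control, 8 of the 10 were below 0 and the median was -0.73. The log2 fold change was then -1.24 for *S100a4*, -0.73 for *S100a10*, -1.02 for *S100a11* and -1.24 for *S100a13*. Marker sums of other cells were also highest in control replicate 1, with 46.4 CPM for the myeloid markers other than *S100a8* and *S100a9*, and their part in the S100 values was not tested.

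For Dyrk1a shRNA against harmine, 8 of the 10 genes were above 0, with a median of 0.24, against -0.001 over all genes. The harmine libraries here are those whose low *S100a6* chose the list, so this comparison is not independent of the choice either, and low values in them place a gene above 0. By edgeR 0 of the 10 passed, with 0.00943% of all genes called, and by DESeq2 0 of the 10, with 0.0189% of all genes called. At an unadjusted p under 0.05, 2 were higher (*S100a4* and *Anxa6*), where 2.91% of all genes were higher and 2.82% lower. The libraries did not overlap for *S100a4*, *S100a10* and *Anxa6*, all higher, where 20.2% of all genes were higher and 20.8% lower in this way. The median was 0.28 with trends of length and GC content removed, where 10 of the 10 were above 0. The 95% interval of the difference for *S100a6* ran from -0.06 to 1.52. With 2 libraries against 2, an exact two-sided permutation test of a single gene cannot give a p below 0.333.

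**Figure D4:**
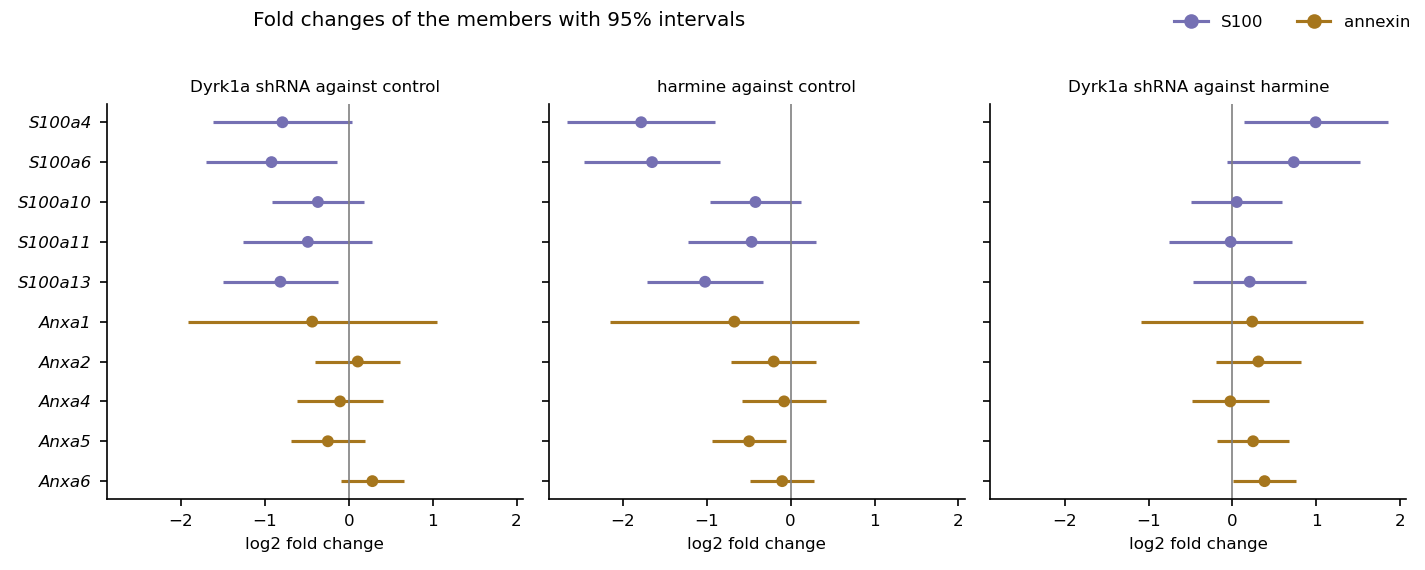
Log2 fold changes (x axes) of the 10 genes (rows) in 3 comparisons, with points for edgeR estimates and lines for 95% intervals, S100 genes in purple and annexins in brown. For harmine against control all 10 points lie below 0, and for Dyrk1a shRNA against harmine 8 of 10 lie above 0.

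**Figure D5:**
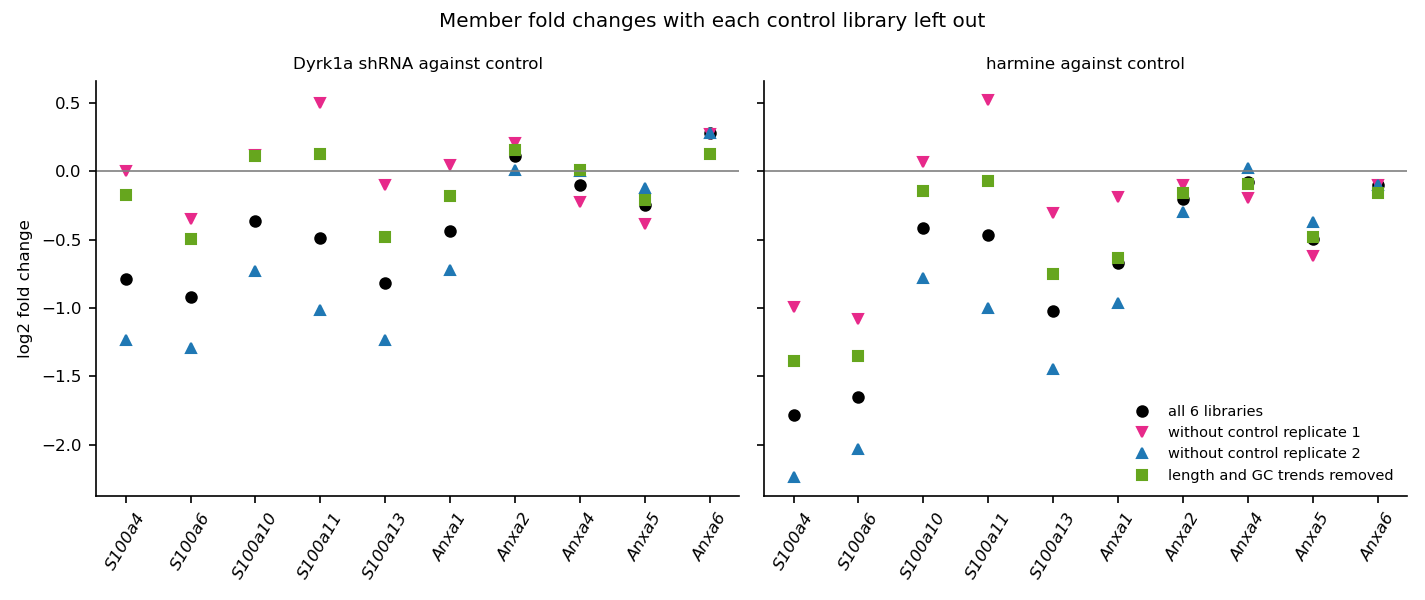
Log2 fold changes (y axis) of the 10 genes (x axis) against control for Dyrk1a shRNA (left) and harmine (right), with all 6 libraries, without either control library, and with trends of length and GC content removed. Without control replicate 1, *S100a6* stays at -1.08 and *S100a4* at -0.99 for harmine, while *S100a10* and *S100a11* move above 0 in both comparisons.

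Of 12 other S100 genes in the table, 9 had at most 3 counts in any library, with *S100a7a*, *S100a16* and *S100z* at 0 in all 6. The others passed the filter. *S100a8* and *S100a9* encode calprotectin, a protein of neutrophils and monocytes. *S100a8* read 3.07 and 3.83 CPM with Dyrk1a shRNA, 3.28 and 1.85 CPM with harmine, and 14.4 and 1.69 CPM in controls, so its log2 fold changes of -1.31 (edgeR adjusted p = 0.665) for Dyrk1a shRNA and -1.76 for harmine, both against control with 2 libraries a group, rested on control replicate 1. *S100a9* read 3.83 and 2.65 CPM with Dyrk1a shRNA, 2.38 and 3.17 CPM with harmine, and 9.42 and 6.75 CPM in controls, from 8 to 15 counts a library. It gave -1.35 (edgeR adjusted p = 0.612) for Dyrk1a shRNA and -1.54 for harmine. *S100a1*, divergent from *S100a13* and best known from heart muscle, gave -0.64 (edgeR adjusted p = 0.705) for Dyrk1a shRNA and -1.01 for harmine. It read 10.7 and 15.6 CPM with Dyrk1a shRNA, 11.3 and 9.24 CPM with harmine, and 28.2 and 11.8 CPM in controls. The median of these 3 genes was -1.31 for Dyrk1a shRNA and -1.54 for harmine, both against control. Without control replicate 1 the 2 medians were 0.17 and -0.21. Of 7 other annexins, *Anxa8*, *Anxa10* and *Anxa13* were at 0 in all libraries and *Anxa3* had at most 6 counts. *Anxa7* and *Anxa11* gave 0.35 and 0.32 for Dyrk1a shRNA against control and 0.03 and -0.01 for harmine against control, and *Anxa9* gave -0.35 and -0.24.

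Partners and receptors of these proteins went both ways. Of 23 listed (such as the annexin A2 and S100A10 partner *Ahnak*), 14 passed the filter. By edgeR 0 of the 14 passed in any comparison, where 0.00943% to 0.0189% of all genes did. Their log2 fold changes ran from -0.53 to 0.75 for Dyrk1a shRNA (median -0.01) and from -0.57 to 0.50 for harmine (median -0.06), both against control. *Myh9*, the non-muscle myosin heavy chain that S100A4 binds, averaged 117 CPM with Dyrk1a shRNA, 80.4 CPM with harmine and 121 CPM in controls. *Ahnak*, a giant scaffold at the membrane, averaged 70.6, 51.8 and 70.7 CPM in the same order. With Dyrk1a shRNA against harmine the log2 fold change was 0.55 for *Myh9* and 0.45 for *Ahnak* (edgeR adjusted p = 0.83 for each), and for harmine against control it was -0.57 and -0.45. *Cacybp*, which encodes the calcyclin-binding protein, gave -0.53 (edgeR adjusted p = 0.622), *Dysf*, a membrane repair gene, 0.75 (0.731) and *Myl12a*, a myosin light chain gene, -0.30 (0.726) for Dyrk1a shRNA against control. *Sugt1*, whose co-chaperone product binds S100A6, gave -0.34 for harmine against control.

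Genes raised with the S100 genes in activated and memory T cells numbered 20, of which 18 passed the filter. By edgeR 0 of the 18 were called in any comparison, where 0.00943% to 0.0189% of all genes were. For harmine against control 15 of 18 were below 0 (median -0.33), among them *Lgals1* at -0.99, *Lgals3* at -0.82 (both galectins) and *Tmsb10* (actin-binding thymosin) at -0.74. Control replicate 1 was the higher control for each. *Tmsb10* read 1690 and 793 CPM in controls against 748 and 739 CPM with harmine. *Lgals1* read 625 and 294 against 210 and 253 CPM, and *Lgals3* 495 and 298 against 229 and 223 CPM. With Dyrk1a shRNA against control 14 of 18 were below 0 (median -0.22), with *Lgals1* at -0.60 (edgeR adjusted p = 0.647), *Tmsb10* at -0.62 (0.645) and *Id2*, a transcriptional regulator of effector cells, at -0.40 (0.658). Without control replicate 1 the 2 medians were -0.18 for harmine and 0.03 for Dyrk1a shRNA. With trends of length and GC content removed they were -0.31 and -0.05. *Ccr2*, a chemokine receptor gene, was 1 of the 3 genes above 0 for harmine against control, averaging 4.76 CPM with Dyrk1a shRNA, 11.1 CPM with harmine and 6.09 CPM in controls, with a log2 fold change of -1.19 (edgeR adjusted p = 0.685) for Dyrk1a shRNA against harmine. For the same comparison *Lgals3* gave 0.60 (0.827) and *Capg*, an actin-capping gene, 0.42 (0.845).

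Other EF-hand genes did not follow the S100 genes as a group. Of 20 listed, 19 passed the filter and 0 were called by edgeR, where 0.00943% to 0.0189% of all genes were called. The median was -0.00 for Dyrk1a shRNA and -0.04 for harmine, both against control. *Calm2*, a calmodulin gene, gave -0.41 (edgeR adjusted p = 0.622) for Dyrk1a shRNA and -0.09 for harmine, both against control. The calpain genes *Capn1* and *Capn2* averaged 65.6 and 71.5 CPM with Dyrk1a shRNA, 49.0 and 50.3 CPM with harmine, and 41.7 and 72.2 CPM in controls, so that *Capn1* was highest with Dyrk1a shRNA and *Capn2* lowest with harmine. *Capn1* had a log2 fold change of 0.67 (edgeR adjusted p = 0.612) for Dyrk1a shRNA against control, and *Capn2* of 0.51 (0.83) for Dyrk1a shRNA against harmine. Between the treatments *Actn4*, an actin crosslinker gene, gave 0.41 (0.844) and *Efhd2* 0.39 (0.85). *Chp1*, a calcineurin-like EF-hand gene, gave 0.29 for harmine against control.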

How the data were processed

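Polyadenylated RNA was isolated on oligo-dT beads, primed with poly-dT, made into Nextera libraries and sequenced in 6 libraries. The authors aligned reads to mm10 with TopHat2 2.0.13 and estimated expected counts per gene with RSEM, whose version, annotation and use of strand are not given in the sources used here. Deposited expected counts of 23420 genes were not normalized, and the 6 columns were matched to libraries by their labels. The submitters' processing notes also name DESeq.

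After rounding, 1 robust quasi-likelihood model of 3 groups of 2 libraries was fitted in edgeR 4.0.16 (R 4.3.3), with TMM scaling and genes kept by filterByExpr at a minimum count of 10. Tests were two-sided, with Benjamini-Hochberg adjustment over 10607 genes and a threshold of 0.05. DESeq2 1.42.0 was an alternative. Centred values used log2 CPM with a prior count of 2. Length and GC content from GENCODE M21 (GRCm38) matched 93% of symbols, and their trends were removed as natural splines with 4 degrees of freedom. Further alternatives were library size alone, DESeq2's size factors, no filter, a minimum count of 50, a replicate block, the compared pair alone, thinning to the smallest library, and leaving out each library in turn.

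The 10 genes and the other lists (other S100 genes, other annexins, partners and receptors, activation and memory, EF-hand, ribosomal protein genes, cell type markers) were chosen with earlier results of these data known. The rule for naming took all 10 genes, every other S100 gene and annexin, *Dyrk1a*, up to 3 genes of each other list per comparison by smallest unadjusted p, and the 5 genes nearest to *S100a6*. *Csf1r* and *Lyz2* were named after their values were seen, and 1 gene that the rule takes is not reported here. Replicates differed by more than sampling noise, with chi-square statistics of 3.69 to 10.5 times their degrees of freedom.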

Additional observations from a re-analysis of the deposited data

How the results depend on the processing

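For harmine against control, *S100a10*, *S100a11* and *Anxa4* changed sign in some alternative runs. The other genes of the list kept their sign in every run that tested them. Log2 fold changes ran from -2.20 to -1.08 for *S100a6* and from -2.24 to -0.99 for *S100a4*. They ran from -1.44 to -0.31 for *S100a13* and from -1.23 to -0.19 for *Anxa1*. For *Anxa2* they were -0.35 to -0.07, for *Anxa5* -0.62 to -0.37 and for *Anxa6* -0.16 to -0.07. Scaling by library size or by DESeq2's size factors turned the sign of none of the 10 genes in any comparison. The controls were the shallowest libraries and the ones whose replicates differed most. *Anxa1*, with 3 to 12 counts a library, also moved with the treated libraries, to -1.23 for harmine against control without harmine replicate 2 and to -1.20 for Dyrk1a shRNA against control without Dyrk1a shRNA replicate 2.

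Harmine against control chose the list, so nothing is read from its calls. Genes of the list past the threshold there numbered 1 by the DESeq2 Wald test and 3 with no filter (*S100a4*, *S100a6* and *S100a13*). With Dyrk1a shRNA against control they numbered 1 with no filter, which was *S100a6*, the gene that chose the list. Leaving out a library leaves 1 library in its group, so calls from those fits, of single genes or over all genes, are not given. The median of the 10 genes for Dyrk1a shRNA against control ranged from -0.73 to 0.0229 when libraries were left out. Over all genes, harmine against control had 1 gene past the threshold, 3 by DESeq2, 20 with no filter, 2 after thinning, 0 with a minimum count of 50 and 0 for the pair alone, and 1 to 291 when libraries were left out. Dyrk1a shRNA against control had 2, then 28 with no filter, 5 for the pair alone, and 1 to 439 when libraries were left out. Dyrk1a shRNA against harmine had 1, then 3 with library size, 2 by DESeq2, 22 with no filter and 4 for the pair alone. The cause was not tested.

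With all 6 libraries, 0 of the 10 genes passed the edgeR test in any comparison. Every sign that turned therefore belonged to a gene that had not passed. For harmine against control, leaving out control replicate 1 gave *S100a10* 0.07 and *S100a11* 0.52. In that comparison *Anxa4* gave 0.04 after thinning and 0.02 without control replicate 2. For Dyrk1a shRNA against control, removing length and GC trends gave *S100a10* 0.11, *S100a11* 0.13 and *Anxa4* 0.0052. Leaving out libraries gave ranges of -1.32 to 0.0001 for *S100a4*, -0.73 to 0.12 for *S100a10*, -1.02 to 0.50 for *S100a11*, -1.20 to 0.0457 for *Anxa1* and -0.10 to 0.29 for *Anxa2*. Between Dyrk1a shRNA and harmine, removing the trends gave *S100a11* 0.20 and *Anxa4* 0.10, and thinning gave *S100a10* -0.046. Leaving out libraries gave ranges there of -0.19 to 0.16 for *S100a11*, -0.0416 to 0.52 for *S100a13*, -0.53 to 0.80 for *Anxa1*, -0.0947 to 0.0473 for *Anxa4* and -0.023 to 0.48 for *Anxa5*.

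Same-numbered libraries deviated together with correlations of 0.0196 (Dyrk1a shRNA and control), 0.12 (harmine and control) and 0.24 (Dyrk1a shRNA and harmine). With 1 difference between replicates a group, these values cannot tell whether the replicate numbers paired the libraries. With a replicate block, 0 genes passed for harmine against control and 0 for Dyrk1a shRNA against harmine, and *S100a11* gave 0.0122 between the treatments.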
